A study of Homo sapiens with 4 samples.

Results

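The mitochondrial ribosomal protein genes are the nuclear genes named MRPL or MRPS with a number, and were followed here on 4 microarrays of Panc1 cells, an established line from a human pancreatic duct carcinoma. A gene was a member if a probe set annotated to it alone had a signal on all 4 arrays. This gave 75 genes with 140 probe sets, of 19775 genes with 41097 such probe sets. The members were chosen by their symbol and by having MAS5 signals, whatever their size, and all 75 genes lay above the floor of 66.4 on all 4 arrays. The floor is the median of all signals, and lower values were set to it.

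The mitochondrial ribosome translates the few proteins encoded by mitochondrial DNA, all of them core parts of the respiratory chain and ATP synthase. Its proteins are encoded in the nucleus, made in the cytosol and imported, and are built with mitochondrial rRNA into a small subunit, which reads the mRNA, and a large subunit, which joins the amino acids. Many of these proteins descend from bacterial ribosomal proteins, and others were added in the mitochondrial lineage. Of the members, 25 belong to the small subunit and 50 to the large one, and 45 have a bacterial counterpart. MRPS18A and MRPS30 were counted with the large subunit, where they sit in spite of their names. MRPL53 and MRPS24 have only probe sets shared with another gene and were not members. The protein known as MRPS36 is annotated as KGD4 and was not a member either.

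The study compared untreated Panc1 cells with cells given romidepsin, tamoxifen or both drugs for 24 hours, in RPMI1640 medium with serum, with 1 array per condition. Romidepsin inhibits histone deacetylases, and tamoxifen is a modulator of the estrogen receptor. The labels give no doses. A fold describes a pair of arrays, has no replicate check and carries no test, and the number of arrays limits the precision.

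Values are MAS5 signals on a linear scale, and the trimmed mean was close to 500.1 on every array. The actin 3′ to 5′ signal ratio, a sign of RNA length, was 1.21 in untreated cells, 1.18 with romidepsin, 1.39 with tamoxifen and 1.73 with the combination, while that of GAPDH was 1.07, 1.03, 1.04 and 1.07. The 18 hybridization spike-in probe sets had 0.781 times their untreated level with tamoxifen and 0.819 times with the combination. The part of either in the results below was not tested. The standard deviation of the log2 folds of the spike-ins was 0.09 to 0.11, and the 26 members with 2 probe sets above the floor gave median differences between them of 0.11 to 0.22 on the log2 scale. Of 5 duct carcinoma markers, KRT8, KRT18, KRT7 and VIM lay above the floor on all arrays and KRT19 below it on all. Of 8 measured markers of other cell types, 2 lay above it, COL1A1 and PECAM1, and the summed signal of the 8 was 6650 to 10033.

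Promoter sequences are shown for 4 members at the ends of the range whose windows held an ETS core or YY1 motif. MRPS18B and MRPL54 were among the lowest against untreated cells on the combination array, MRPL30 and MRPS31 the highest. MRPL9 and MRPL11 were also among the lowest there. None of the 5 motifs was found in their windows, which are not shown. The sequences shown are RefSeq sequences of GRCh38.p14. They run from 250 bases before the gene start to 50 after it, 5′ to 3′ on the gene's strand. Capitals mark 1 motif in each, found by a search of both strands for the 5 motifs described next. In MRPS18B (chr6:30617590-30617889, plus strand) this is the YY1 motif, starting at window base 274. In MRPL54 (chr19:3762432-3762731, plus strand) and MRPL30 (chr2:99180934-99181233, plus strand) it is the ETS core CCGGAAG on the opposite strand, so that its complement is read. The window of MRPL54 also holds TATAAA, near its 5′ end, which is left in lower case. In MRPS31 (chr13:40771141-40771440, minus strand) it is the same ETS core on the gene's strand.
MRPS18B: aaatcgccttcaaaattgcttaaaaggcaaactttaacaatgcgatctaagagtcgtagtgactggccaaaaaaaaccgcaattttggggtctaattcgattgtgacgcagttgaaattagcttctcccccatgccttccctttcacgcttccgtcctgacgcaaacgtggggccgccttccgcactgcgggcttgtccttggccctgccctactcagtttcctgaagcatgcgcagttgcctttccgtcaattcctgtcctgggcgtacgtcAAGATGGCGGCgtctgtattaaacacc
MRPL54: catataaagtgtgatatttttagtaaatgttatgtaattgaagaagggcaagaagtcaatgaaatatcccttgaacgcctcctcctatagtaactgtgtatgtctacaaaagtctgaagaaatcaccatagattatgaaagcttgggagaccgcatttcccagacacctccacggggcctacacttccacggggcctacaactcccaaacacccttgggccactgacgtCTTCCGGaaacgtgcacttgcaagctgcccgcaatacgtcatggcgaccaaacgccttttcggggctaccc
MRPL30: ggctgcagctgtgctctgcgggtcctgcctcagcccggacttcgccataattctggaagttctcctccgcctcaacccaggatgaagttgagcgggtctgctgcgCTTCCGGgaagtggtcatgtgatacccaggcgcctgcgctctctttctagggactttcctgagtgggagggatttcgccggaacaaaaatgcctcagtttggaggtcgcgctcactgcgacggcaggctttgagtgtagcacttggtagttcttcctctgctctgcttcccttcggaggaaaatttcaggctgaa
MRPS31: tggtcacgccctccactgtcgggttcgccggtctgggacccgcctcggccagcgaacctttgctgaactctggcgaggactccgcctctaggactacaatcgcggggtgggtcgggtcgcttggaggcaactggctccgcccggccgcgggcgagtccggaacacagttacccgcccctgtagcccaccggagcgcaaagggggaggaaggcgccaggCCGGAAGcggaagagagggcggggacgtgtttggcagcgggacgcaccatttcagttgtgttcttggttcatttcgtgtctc

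Of the 75 members, 67 had a promoter window. The table of windows had no entry for MRPL10, MRPL13, MRPL15, MRPL2, MRPL21, MRPL23, MRPL35 and MRPS28. CCGGAAG, the core of many ETS factor sites, stood in the windows of 29 members, in 38.6% of the 83 member windows and in 10.3% of all 35116 windows. The YY1 motif, spelled by the capitals of MRPS18B, stood in those of 9 members, in 10.8% of member windows and 0.849% of all. The palindromic NRF1 motif was found in 1 member, at 1.20% against 1.24% of all windows. The E-box CACGTG, bound by MYC and MAX among others, was found in 9 members, at 10.8% against 7.26%, and TATAAA in 3, at 3.61% against 11.5%. Overlaps between motifs were not removed. A match describes letters in a window and is not a measured binding site.

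With romidepsin, 65 of the 75 members had a lower signal than in untreated cells, and the median log2 fold was -0.40, with quartiles of -0.76 and -0.15. Over all 13619 measured genes the median was 0.06 and 46.4% were lower. A difference of 2-fold or more stands in for a test here, and only such members are said to have risen or fallen. By that measure 9 members fell and 0 rose, 12% of them, beside 9.27% of all genes that fell and 14.3% that rose. The count of falls is thus near the background, while the median lay 0.45 below that of all genes. In bulk RNA, fewer cells of a type and less RNA per cell cannot be told apart.

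The 8 members with the largest falls, all their measured probe sets lower, encode 7 proteins of the large subunit and 1 of the small. The signal of MRPL9, the counterpart of bacterial L9, was 5669 in untreated cells, 2202 with romidepsin, 4048 with tamoxifen and 1247 with the combination. MRPL23, which lies at the tunnel where the new protein leaves, had 12198, 5026, 7432 and 2313 in the same order. MRPL11, at the base of the stalk that recruits translation factors, had 5137, 2171, 3530 and 1501. In all 3 genes the untreated array was the highest, tamoxifen came next, and romidepsin and the combination were lowest. MRPL9 fell 2.57-fold with romidepsin, MRPL23 2.43-fold and MRPL11 2.37-fold. MRPS18B, 1 of 3 relatives of bacterial S18 and the only small subunit protein of these 8, had 6560, 2587, 3685 and 1431, a 2.54-fold fall with romidepsin. Its second probe set read 3627, 1377, 2176 and 902, in the same order of arrays. The others were MRPL54 at 2.25-fold, MRPL34 at 2.17-fold, MRPL15 at 2.17-fold and MRPL27, near the peptidyl transferase centre, at 2.09-fold.

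No member rose 2-fold with romidepsin, and 10 had values above those of untreated cells. MRPS31, a protein of the small subunit without a bacterial counterpart, had 950 in untreated cells, 1761 with romidepsin, 1372 with tamoxifen and 2121 with the combination. The untreated array was its lowest. MRPL30, the relative of bacterial L30, had 2373, 4293, 2179 and 3625, so that both arrays with romidepsin stood above both without it. All 5 of its probe sets were higher with romidepsin, by 0.41 to 1.02 on the log2 scale. MRPL10, which anchors the MRPL12 copies of the stalk, had 6223, 9197, 3819 and 8018, and here too the arrays with romidepsin were the higher ones. Its partner MRPL12, which also binds the mitochondrial RNA polymerase, had 6659, 4458, 3972 and 2484, the untreated array highest and the combination lowest. The log2 folds with romidepsin were 0.89 for MRPS31, 0.86 for MRPL30, 0.56 for MRPL10 and -0.58 for MRPL12.

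**Figure D1:**
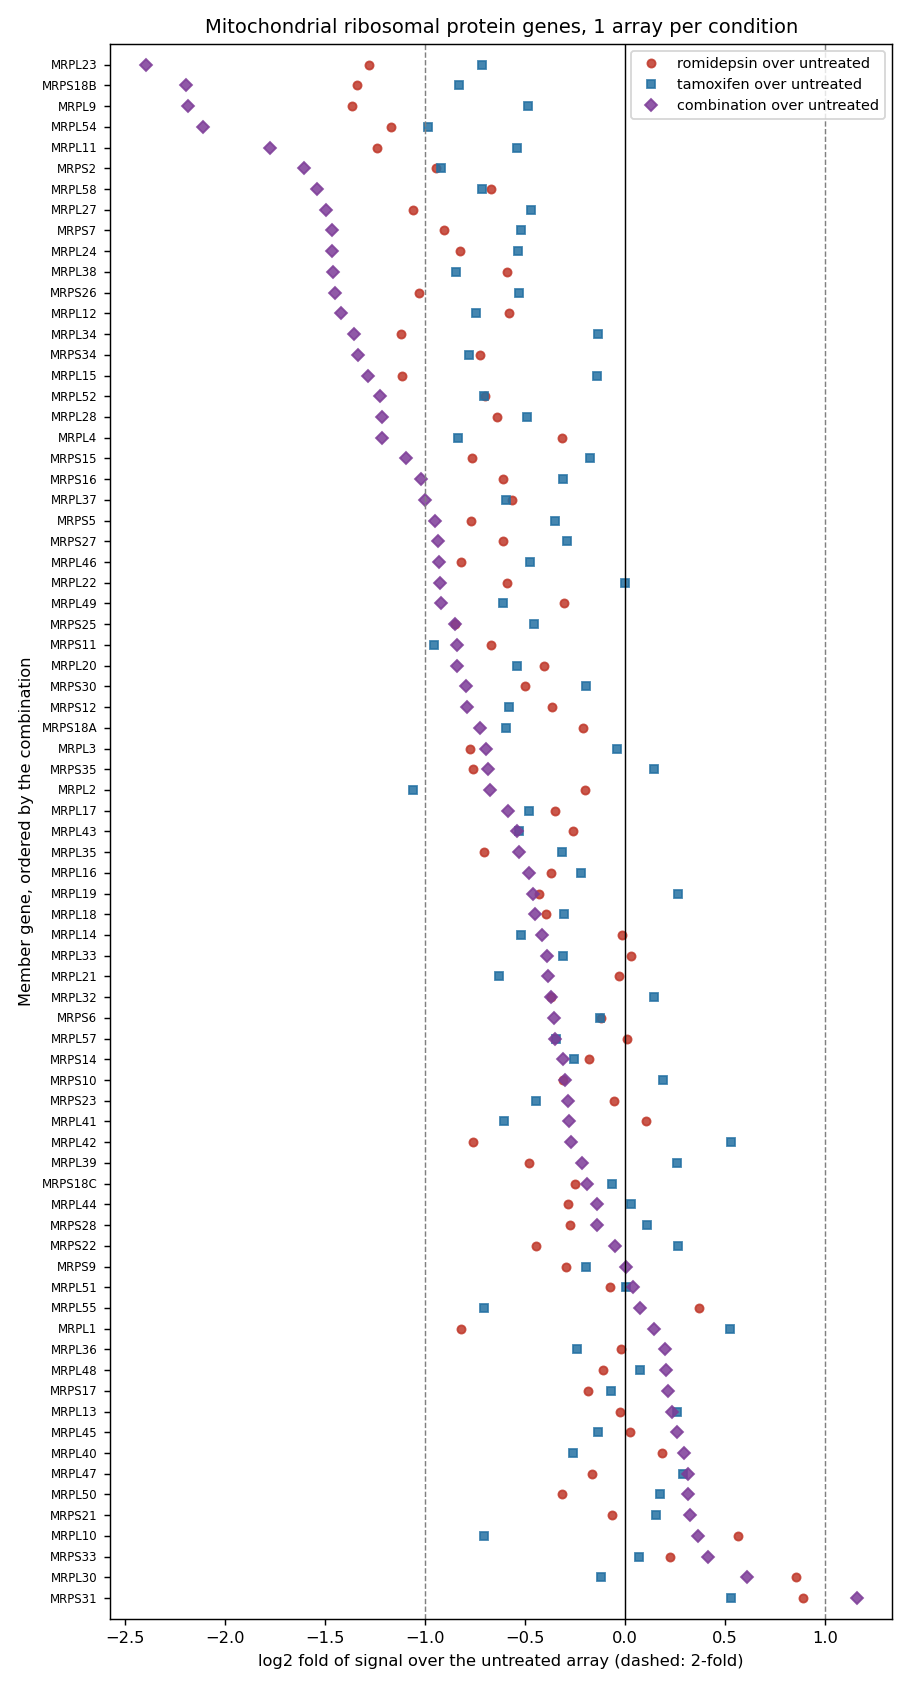
Log2 fold of the signal over the untreated array (horizontal axis) for each of the 75 members (vertical axis, ordered by the combination), with 1 array per condition and dashed lines at 2-fold. In the combination 22 members lie past the lower line and 1, MRPS31, past the upper one; with spike-in scaling the tamoxifen median turns from -0.31 to 0.04.

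Romidepsin can also be read from the combination against tamoxifen alone, a pair that shares no array with romidepsin against untreated cells. There the median was -0.31 and 54 members were lower, 72% beside 47.2% of all genes, and 8 fell and 1 rose. The share that fell was 10.7%, beside 11.8% of all genes, and 14.8% of all genes rose. MRPL9 fell 3.25-fold, MRPL23 3.21-fold, MRPS18B 2.58-fold, MRPL11 2.35-fold, MRPL34 2.33-fold, MRPL15 2.21-fold, MRPL54 2.18-fold and MRPL27 2.03-fold. These are the same 8 genes as above. MRPL10 was the member that rose, by 2.10-fold. With each array centred on its median, 13 members fell and 0 rose, beside 14.6% of all genes that fell and 12.3% that rose.

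Over the 75 members, the sign was the same in both pairs for 60, or 80%, with 52 lower in both, 8 higher in both and 8 that fell in both. Over the 11058 genes above the floor on all arrays it was the same for 85.04%. Among the 4837 genes with a mean signal at least that of the dimmest member, 1124, it was 87.6%. This background was chosen after seeing the data. Of its genes, 51.6% were lower with romidepsin than in untreated cells, and 51.8% in the combination than with tamoxifen. Pearson's r between the pairs was 0.91 over the members, 0.90 over the 11058 genes and 0.93 over the 4837, which share array scaling, and is given as a description. The share and r of the members were near those of the other genes. MRPL54, a large subunit protein without a bacterial counterpart, had 2806, 1245, 1419 and 650, and MRPL27 had 8748, 4192, 6313 and 3105, the untreated array highest and the combination lowest in both. MRPL34 had 3518, 1618, 3204 and 1376. MRPL15 had 6480, 2986, 5873 and 2658, and in these last 2 genes tamoxifen alone lay close to untreated cells.

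**Figure D2:**
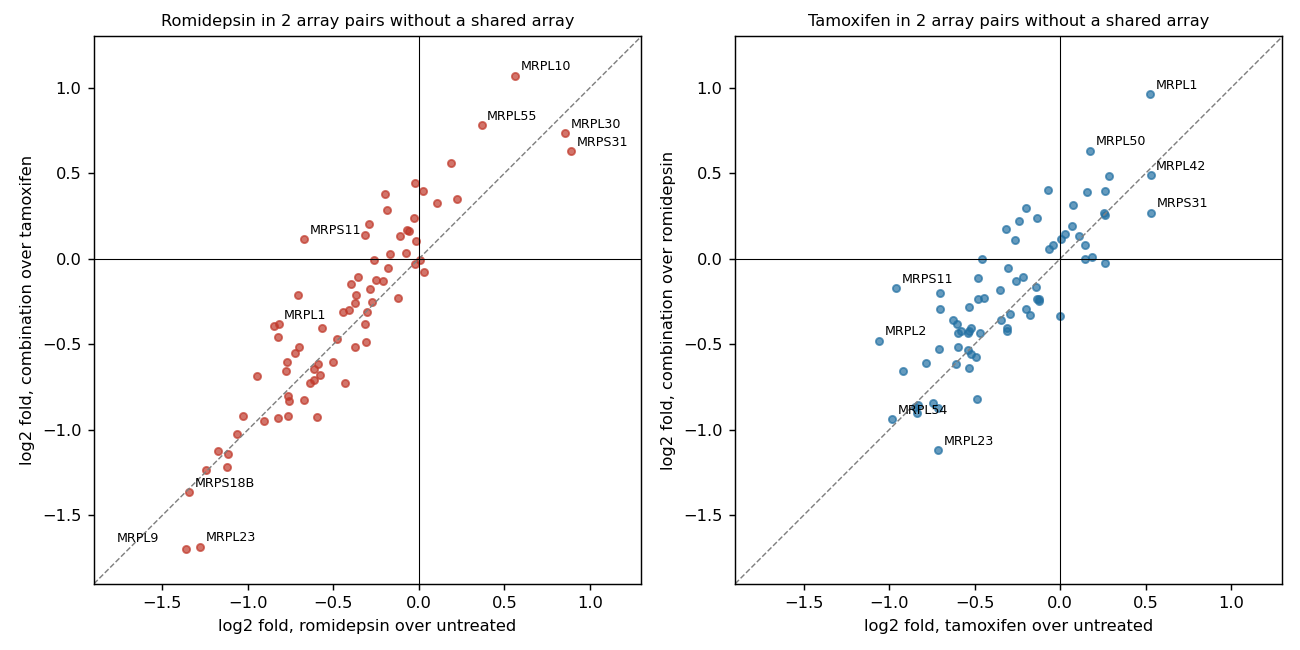
Log2 folds of the 75 members (points) for romidepsin (left) and tamoxifen (right), each read from 2 pairs of arrays that share no array, with the line of equal values dashed. Romidepsin gave the same sign in both pairs for 60 members and tamoxifen for 65; spike-in scaling moves the tamoxifen medians above 0.

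With tamoxifen, 57 of 75 members, 76% beside 49.1% of all genes, had values below those of untreated cells, with a median log2 fold of -0.31 that turned to 0.04 when the arrays were scaled on the spike-ins. The median of all genes was 0.01 and moved by 0.32 under that scaling. Of the 4837 genes as bright as the members 55.5% were lower, and their median was -0.07. Relative to all genes, the members' median was -0.32, and it stayed below 0 under every scaling and probe-set setting tried. Scaling on the spike-ins or on the array median moves members and all genes nearly alike, so it could hardly change this sign. MRPL2 alone fell by 2-fold, 1.33% of the members beside 1.07% of all genes, and 0 members rose, beside 3.7% of all genes. The share is near the background.

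MRPL2, which in bacteria helps form the peptidyl transferase centre, had 2717 in untreated cells, 2368 with romidepsin, 1304 with tamoxifen and 1698 with the combination. Both arrays with tamoxifen stood below both without it, and its second probe set, at 2402, 2434, 1089 and 1558, gave the same split. MRPL2 fell 2.08-fold with tamoxifen. MRPL54 at 1.98-fold, MRPS11 at 1.94-fold, MRPS2 at 1.89-fold and MRPL38 at 1.80-fold lower lay just short of the call. MRPL42, a large subunit protein of the mitochondrial lineage, had 5009, 2952, 7233 and 4144, so that its tamoxifen array was the highest and its romidepsin array the lowest. MRPL1, which forms the mobile stalk by which spent tRNA leaves, had 1385, 785, 1996 and 1530, again with tamoxifen highest and romidepsin lowest.

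Tamoxifen added to romidepsin, the pair without a shared array, gave a median of -0.23, which turned to 0.07 with spike-in scaling. Here 51 members were lower, 68% beside 52.6% of all genes, and 1 fell and 0 rose, beside 2.27% of all genes that fell and 4.07% that rose. Of the 4837 genes as bright as the members 59.3% were lower, and their median was -0.10. MRPL23 was the member that fell, by 2.17-fold, and MRPL1 came closest to rising, at 1.95-fold higher. The call of MRPL23 was lost with spike-in scaling, with the median over probe sets and without probe sets ending in _s_at or _x_at, where its remaining dim probe set was at 0.38 on the log2 scale. The sign was the same as with tamoxifen alone for 65 members, or 86.7%, beside 74.9% of the 11058 genes and 81.5% of the 4837 as bright as the members, with r of 0.83, 0.66 and 0.77. In 49 members both values were below 0 and in 16 both above, and 0 members were past 2-fold in both.

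Against untreated cells, the combination gave the widest spread of the comparisons with that array. Its median was -0.54 over the members and 0.09 over all genes, and 58 members were lower, 77.3% beside 46% of all genes. Of the 75, 22 fell and 1 rose. The 29.3% that fell stand beside 14.4% of all genes, and beside 17.6% of the 4837 genes as bright as the members. For rises the shares were 1.33%, 19.8% and 14.7%. Of these 4837 genes 53.8% were lower by any size, and their median was -0.10. With spike-in scaling 15 of the 22 still fell, beside 9.69% of all genes, and with median centring all 22 fell among 33, beside 20.9% of all genes.

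MRPL23 fell 5.27-fold in the combination, MRPS18B 4.58-fold, MRPL9 4.55-fold, MRPL54 4.32-fold and MRPL11 3.42-fold. The second probe set of MRPL9, at 2347, 998, 2336 and 461, was also lowest in the combination. The other probe set of MRPL23 read 20.2, 37.4, 8.59 and 86.4, at or near the floor, and was highest there. MRPS2, a small subunit protein, had 3283, 1702, 1736 and 1078, with the single drugs close to each other between the untreated array and the combination. MRPL58, a peptidyl-tRNA hydrolase built into the large subunit, had 5731, 3597, 3488 and 1969, again with the single drugs side by side. MRPS7, which binds the head of the small subunit's rRNA, had 4442, 2370, 3099 and 1609. The falls in the combination were 3.05-fold for MRPS2, 2.91-fold for MRPL58, 2.82-fold for MRPL27, 2.76-fold for MRPS7 and 2.68-fold for MRPL12. MRPL38, in the central protuberance, fell 2.75-fold by its bright probe set, at 3792, 2519, 2108 and 1379, while a dim one read 63.0, 98.9, 87.3 and 104.

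**Figure D3:**
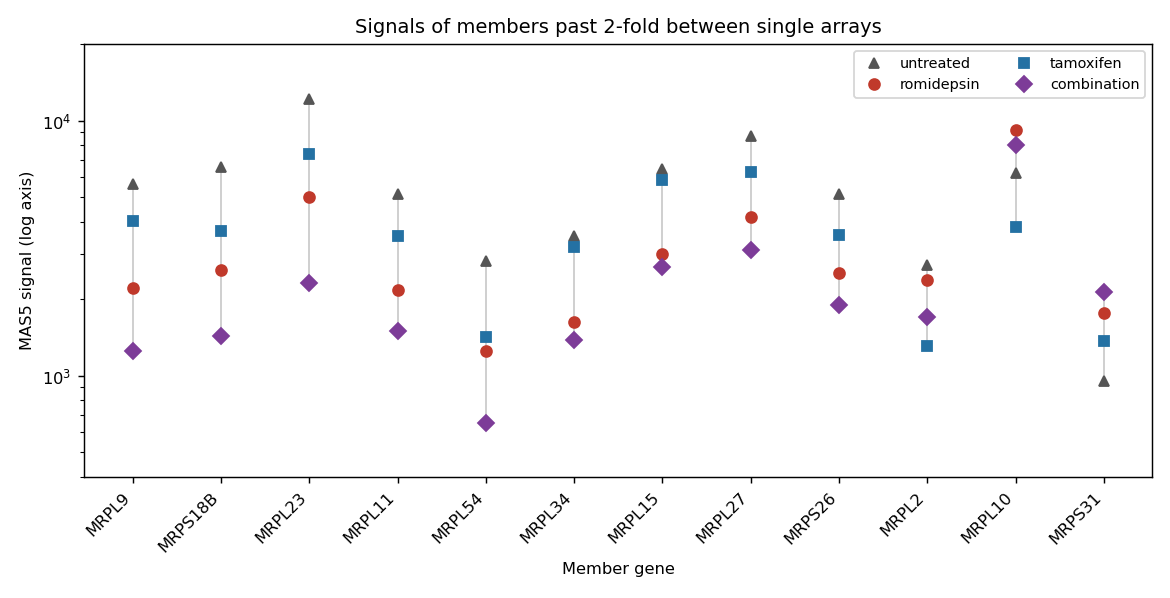
MAS5 signal (logarithmic axis) on the 4 arrays for 12 members at least 2-fold apart between single arrays. In MRPL9, MRPS18B, MRPL23 and MRPL54 the untreated array is highest and the combination lowest, and in MRPS31 that order is turned round.

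MRPS31 was the member that rose in the combination, by 2.23-fold, a call lost with median centring and with the median over probe sets. Its second probe set read 1125, 1492, 1049 and 1900, highest in the combination too, and its other one lay below the floor. Across the members, the untreated array was the highest of the 4 for 46 and the lowest for 2, and the combination was the lowest for 42 and the highest for 12. The median member signal was 4690 in untreated cells, 3037 with romidepsin, 3559 with tamoxifen and 2734 with the combination.

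**Figure D4:**
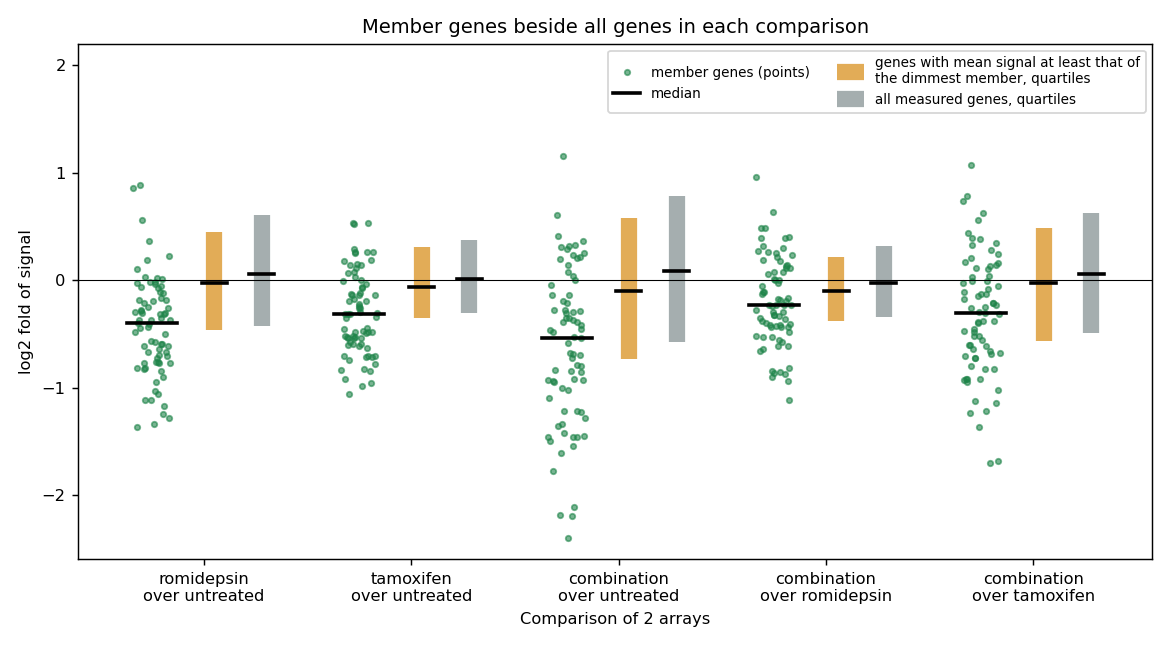
Log2 folds of the 75 members (points) in the 5 comparisons, with bars from the lower to the upper quartile for genes at least as bright as the dimmest member and for all measured genes, and black lines at the medians. The members' median lies below both others in each comparison, and the tamoxifen and combination over romidepsin medians rise above 0 with spike-in scaling.

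Some other members stayed closer together across the arrays, and others did not. MRPS18C, another relative of S18, had 3540, 2975, 3384 and 3101, while MRPS18A had 3248, 2809, 2151 and 1965, lower on the arrays with tamoxifen. In the combination the log2 folds of MRPS18A, MRPS18B and MRPS18C were -0.73, -2.20 and -0.19. MRPS6 had 11709, 10747, 10727 and 9147, MRPL33 5913, 6038, 4760 and 4509, and MRPL41 10676, 11469, 7015 and 8795. None of these 3 reached 2-fold in any comparison by its brightest probe set. MRPL3, close to the peptidyl transferase centre, had 16700, 9754, 16241 and 10299, so that romidepsin arrays were low and tamoxifen alone lay beside untreated cells. MRPS16, a small subunit protein, had 5507, 3599, 4433 and 2715 and fell 2.03-fold in the combination. MRPS30 had 3792, 2675, 3306 and 2180, and was at -0.80 there on the log2 scale.

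For MRPS12, the decoding-centre protein, the direction depended on the probe set. The brightest read 25408, 19700, 17002 and 14688, highest in untreated cells, while the next ones read 2428, 3238, 1238 and 2354 and 1054, 1889, 702 and 1749, both highest with romidepsin. MRPL19, MRPL30, MRPL38, MRPL41, MRPL42 and MRPL57 also had probe sets that moved oppositely by 1.5-fold or more in some comparison. Over the 26 members with 2 probe sets above the floor, the second had the same sign as the first for 21 with romidepsin, 20 with tamoxifen and 23 with the combination. Of the 6 among them past 2-fold in the combination, 5 fell, and these fell by the second probe set as well. The other was MRPS31, which rose and whose second probe set was at 0.76 on the log2 scale.

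With romidepsin, tamoxifen and the combination the medians were -0.44, -0.26 and -0.68 for the small subunit and -0.38, -0.41 and -0.53 for the large one. In the combination 7 of 25 small and 15 of 50 large subunit members fell, 28% and 30%, beside 14.4% of all genes. Members with a bacterial counterpart had a combination median of -0.68, with 15 of 45 that fell, and those without had -0.32, with 7 of 30. The difference between these groups was not tested.

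The combination was also set against the sum of the log2 effects of the single drugs. The departure from that sum had a median of 0.11 over the members and -0.04 over the 11058 genes, and 46 members lay above 0, 61.3% beside 44.6% of those genes. Without probe sets ending in _s_at or _x_at the members' median turned to -0.0046. Only MRPS11 was at least 1.5-fold above additivity, beside 5.21% of all genes, and 0 members were as far below, beside 9.79%. Large departures were rarer among bright genes. At 2-fold, 98 of the 11058 genes lay above and 247 below, and 3 and 51 of the 4837 as bright as the members. MRPS11, on the platform of the small subunit, had 4690 in untreated cells, 2947 with romidepsin, 2416 with tamoxifen and 2613 with the combination. All 3 treated arrays were low and close together, and the departure was 0.78 on the log2 scale. After it came MRPL2 at 0.58, MRPL10 at 0.51, MRPS9 at 0.50 and MRPL35 at 0.49. The lowest were MRPL23 at -0.40, MRPL9 at -0.33, MRPL22 at -0.33, MRPL19 at -0.29 and MRPS31 at -0.26.

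Gene length and position were not used to choose the members. The 75 genes lie on 21 chromosomes, with 8 each on chromosomes 1 and 17, and have a median length of 8667 bases, beside 29641 for all genes above the floor. The 22 that fell in the combination had a median length of 5234.5 bases and the other 53 one of 13069. Pearson's r of log10 length with the log2 fold was 0.49 for tamoxifen, 0.02 for romidepsin and 0.24 for the combination over the members, and 0.28, 0.04 and 0.13 over the 11052 genes with a length. These are correlations across genes on the same arrays, given as a description. By motif, the median combination fold was -0.48 for the 29 members with the ETS core and -0.74 for those without, and -0.80 for the 9 with the YY1 motif and -0.51 for those without, with no test.

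A coding gene starts head to head within 1000 bases for 20 of the 67 members with a window, and in 18 of them this neighbour is no member. Over the 17 of these pairs that were measured, the median log2 fold in the combination was -0.79 for the member and 0.09 for its neighbour. The following pairs were chosen after their values were seen. MRPS18B was at -2.20 and its neighbour PPP1R10, a regulatory subunit of protein phosphatase 1, at 0.22. MRPS12 was at -0.79 and SARS2, the mitochondrial seryl-tRNA synthetase, at -1.81. MRPL46 and MRPS11 face each other and were at -0.93 and -0.84.

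The other genes of mitochondrial gene expression were taken as lists. Their counts stand beside 14.4% of all measured genes that fell in the combination and 19.8% that rose. The 4 measured mitoribosomal proteins named otherwise had a combination median of -0.40, and 1 fell and 0 rose. It was GADD45GIP1, also called MRPL59, with 3024, 1419, 1860 and 587, highest in untreated cells and 5.15-fold lower in the combination. Of 26 assembly factors 7 fell and 3 rose, with a median of -0.58. RCC1L, with 1155, 429, 854 and 230, and MRM1, which methylates the large rRNA, with 410, 133, 275 and 83, were lowest in the combination, at 5.02-fold and 4.94-fold. FASTKD2, which binds mitochondrial RNA, had 961, 1672, 1303 and 2788 and rose 2.90-fold.

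The median of 15 translation factors was 0.39 in the combination, with 3 that rose and 2 that fell. Both counts were near the shares of all genes, of which 19.8% rose and 14.4% fell. MTIF3, the initiation factor, had 718, 1363, 1366 and 2187 and rose 3.05-fold, and LRPPRC, which stabilises mitochondrial mRNA, had 6619, 8959, 9436 and 15676 and rose 2.37-fold. TACO1, the translational activator of COX1, had 1813, 754, 1069 and 600 and fell 3.02-fold. Of 15 mitochondrial aminoacyl-tRNA synthetases 4 fell and 0 rose, with a median of -0.49. SARS2, at 2015, 889, 1259 and 575, fell 3.50-fold, and YARS2, at 2009, 635, 1765 and 624, fell 3.22-fold. Of 13 genes of mitochondrial DNA transcription and maintenance 3 rose and 2 fell, also near those shares, with a median of 0.13. MTERF1, which binds mitochondrial DNA, had 80, 181, 144 and 521 and rose 6.49-fold.

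**Figure D5:**
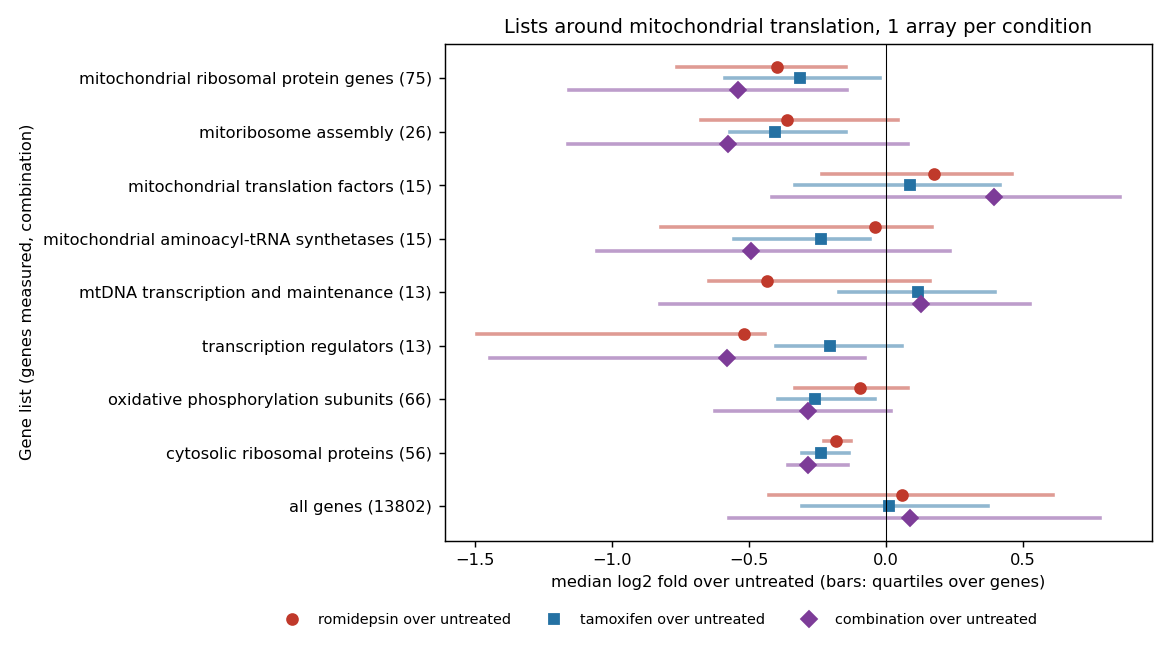
Median log2 fold over the untreated array (points) with lower and upper quartiles over genes (bars) for the members, the lists around them and all genes, with 1 array per condition. The members lie at -0.40, -0.31 and -0.54, beside 0.06, 0.01 and 0.09 for all genes; the tamoxifen value of the members turns to 0.04 with spike-in scaling.

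Of 13 measured regulators of nuclear genes for mitochondrial proteins, 4 fell and 1 rose in the combination. Of all measured genes, 14.4% fell and 19.8% rose there. MYC had 5208 in untreated cells, 1668 with romidepsin, 4042 with tamoxifen and 648 with the combination, an 8.03-fold fall. NRF1, nuclear respiratory factor 1, had 534, 196, 417 and 196 and fell 2.72-fold, with both romidepsin arrays alike. GABPA, the DNA-binding subunit of an ETS factor, had 568, 416, 1247 and 891, higher on both arrays with tamoxifen. The coactivator PPRC1 had 1136, 321, 802 and 144 and fell 7.91-fold. MAX, the partner of MYC on DNA, was the gene that rose, with 2399, 4685, 2070 and 5418, highest on both arrays with romidepsin and 2.26-fold higher in the combination. The 66 measured subunits of oxidative phosphorylation had a combination median of -0.28. Of these 9 fell, near the share of all genes, and 3 rose. The 56 cytosolic ribosomal proteins also had a median of -0.28, with 1 each way. No difference between these lists and the members was tested, and proteins were not measured.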

How the data were processed

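Total RNA of 4 Panc1 samples, 1 per condition, was measured on 3′ expression arrays. The authors deposited 1 linear-scale intensity per probe set. The submitters' processing notes name MAS5, with a version not given in the sources. MAS5 scales each array on its own, so that the bulk of the signal is taken to be equal in all samples. Of 54675 probe sets, 62 are controls, and the platform annotation gives 1 gene for 41097, of which 6 are actin and GAPDH controls, several for 1801 and none for 11721. Symbols were checked by Entrez ID against RefSeq (GRCh38.p14), which matched 41043 and changed 0.

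Where a gene had several probe sets, the one brightest on average (mean log2) stood for it. Before log2 was taken, signals under 66.4, the median over the probe sets that are no controls, were raised to that floor. A gene was measured if at least 1 of 2 arrays lay above the floor, and called at 2-fold. Samples were grouped by their labels into 5 comparisons, with no test. The departure is combination minus romidepsin minus tamoxifen plus untreated, on the log2 scale.

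The members, lists and motifs were chosen with earlier results of these data known. Genes named were, per comparison, up to 8 called members with all measured probe sets in 1 direction, the 5 largest values each way, the 5 largest departures each way, members whose probe sets opposed by 1.5-fold, 14 fixed names, MYC, NRF1 and GABPA, and up to 4 called genes per companion list. The 7 alternatives were median centring, quantile normalization, scaling on 18 spike-in probe sets, floors at the percentiles 25 and 75, the median over probe sets, and leaving out probe sets ending in _s_at or _x_at. Python 3.11.15, numpy 2.4.6, pandas 2.3.3 and matplotlib 3.10.9 were used, and the steps were tested on simulated data.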

Additional observations from a re-analysis of the deposited data

Results flagged for a closer look

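MRPS11 differed between romidepsin without and with tamoxifen. Its log2 fold was -0.67 for romidepsin over untreated cells and 0.11 for the combination over tamoxifen, so that the signs are opposite and the departure from additivity was 0.78. The difference was not tested, since each value rests on 1 pair of arrays. Its other probe set read 129 in untreated cells, 104 with romidepsin, 121 with tamoxifen and 100 with the combination. There the same log2 folds were -0.31 and -0.28, so the signs were not opposite. With the median over probe sets the departure was 0.41.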

How the results depend on the processing

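No paired analysis was possible because each condition has 1 array and no replicate numbers. With median centring, the members' median log2 fold was -0.59 for romidepsin, with 15 that fell, -0.46 for tamoxifen, with 4, -0.84 for the combination, with 0 that rose, and -0.46 for the combination over tamoxifen, with 13 that fell and 0 that rose; 3 fell in the combination over romidepsin. With spike-in scaling the medians were 0.0430 for tamoxifen, with 0 that fell, -0.25 for the combination, and 0.0729 for the combination over romidepsin, with 1 that rose and 0 that fell. These scalings shift the median of all genes, by -0.10 to -0.26 with median centring and by 0.25 to 0.32 with spike-in scaling in those 3 comparisons, and move the balance of calls over all genes: with romidepsin 11.4% rose and 12.7% fell with median centring, and with tamoxifen 11.5% rose and 0.204% fell with spike-in scaling. Relative to the median of all genes, a measure added after seeing the data, the members' median kept its sign in all 5 comparisons under all 7 alternatives. Most of these could hardly change it. Median centring and spike-in scaling multiply a whole array and move members and all genes nearly alike, and the other floors left the members' values unchanged. With quantile normalization the relative median was -0.32 for romidepsin, -0.45 for the combination and -0.26 for the combination over tamoxifen. There 2 members fell in the combination over romidepsin.

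With the median over probe sets, the combination median was -0.43, with 0 that rose, and 0 fell in the combination over romidepsin. Without probe sets ending in _s_at or _x_at, 44 members kept a probe set, so fewer genes were counted: 4 fell with romidepsin, 11 in the combination, whose median was -0.67, and 4 in the combination over tamoxifen, and in the combination over romidepsin 1 rose and 0 fell. The medians relative to all genes were then -0.57 for romidepsin and -0.81 for the combination, and the median departure was -0.0046. MRPL23, left with its probe set near the floor, was at 0.38 in all 3 comparisons with the combination array. The other floors changed no member's value. With 1 array per condition, differences between cultures, and those from RNA length or labelling, cannot be told apart from drug effects.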

Other observations

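Probe sets that the annotation gives to a mitochondrial ribosomal protein gene and another gene belong in none of the counts above. The one shared by MRPS24 and its read-through transcript had 16602 in untreated cells, 11214 with romidepsin, 12304 with tamoxifen and 8814 with the combination. The one shared by MRPL53 and CCDC142 had 10060, 10544, 7400 and 7829, lower on both arrays with tamoxifen. The one shared by MRPL51 and SPTLC1 had 1501, 1282, 1446 and 1354. KGD4, the subunit of the oxoglutarate dehydrogenase complex once named MRPS36, had 3914, 3454, 5326 and 4024, highest with tamoxifen.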
